A study of Homo sapiens with 7 samples.

Results

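SEES-3 hESCs, an established human embryonic stem cell line, were engineered to switch on the catalytic domain of the H3K27 demethylase JMJD3 (JMJD3c). Described here are 114 genes whose RNA climbed at every step from Day 1 to Day 4 of that induction. They were chosen by their FPKM in the same 7 libraries: FPKM higher at Day 2 than at Day 1, at Day 3 than at Day 2 and at Day 4 than at Day 3 in the JMJD3c line, more than 4 FPKM at Day 4, and a Day 4 value more than 2 times that of each of 3 references. The references were Day 0 of the JMJD3c line and the mutant line without and with doxycycline (Dox). Of 20187 genes on chromosomes (22670 in all), 134 met these limits. A list of 26 genes, most of them known developmental regulators or signalling genes, was set aside, and 20 of these had met the limits (CER1, EOMES, T, MIXL1, GSC, EVX1, LHX1, SOX17, FOXA2, GATA4, GATA6, CXCR4, PRDM1, SP5, DKK4, CST1, LEFTY1, LEFTY2, BMP2 and VANGL1). Because the values themselves chose the 114 genes, their order over Days 1 to 4 and their excess over the references are given as a description and not as a finding.

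The JMJD3c line carries an HA-tagged JMJD3c with a nuclear localization signal in a piggyBac vector under a Tet-responsive element, in cells that constantly express the reverse Tet-transactivator. It was sampled before Dox (Day 0) and on each of Days 1 to 4 of treatment with 1 µg/ml Dox. The mutant line carries the same design with a point mutation in the catalytic domain and was sampled untreated and after treatment to Day 4 with the same dose of Dox. Both lines are puromycin-selected stable clones grown feeder-free in StemFit AK-03 medium, so a difference between the lines may also be one between clones. Each condition had 1 library and no replicate, no test was possible, and the 95% intervals quoted are those Cufflinks gave for the estimate within 1 library. The intervals of genes listed at 0 are 0 to 0 and add no uncertainty. Since these are bulk RNA values, a change in the number of expressing cells and a change in RNA per cell cannot be told apart.

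As background, trimethylation of histone H3 lysine 27 is laid down by Polycomb repressive complex 2, sits over many CpG-rich promoters of developmental genes in pluripotent cells, and is removed by JMJD3 (KDM6B) and UTX. Cells leaving pluripotency toward mesendoderm typically change adhesion molecules, deposit new extracellular matrix and reorganize intermediate filaments. The set-aside regulators are the usual markers of that step, and the 114 genes are what rose with the same shape without being among them.

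KDM6B read 3.45 FPKM before Dox and 158, 212, 248 and 282 FPKM at Days 1 to 4, with 2.40 and 454 FPKM in the mutant line without and with Dox. This value does not separate the transgene from the cells' own gene. The pluripotency genes POU5F1, NANOG and SOX2 were read in every library, at 619 to 841, 84.3 to 109 and 65.9 to 136 FPKM. The depth, estimated from the step that 1 read leaves among low values, was lowest for Day 0 (3520000 reads) and highest for the untreated mutant line (7260000), with 4850000 reads at Day 4.

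All 114 genes are annotated as protein coding. The promoters of 4 of them are printed first, as windows from 250 bases before to 50 bases after the RefSeq start site (GRCh38.p14, in the direction of the gene). NTS, among the 12 highest members, and COLEC12, among the 12 largest ratios, are shown as a CpG-poor and a CpG-rich example, with every CG in capitals. GAD1 and DIO3 were listed at 0 in all 3 references, and there the capitals mark the letters of searched motifs. The windows are chr12:85874045-85874344 on the + strand for NTS, chr18:500652-500951 on the - strand for COLEC12, chr2:170816637-170816936 on the + strand for GAD1 and chr14:101561245-101561544 on the + strand for DIO3.
NTS: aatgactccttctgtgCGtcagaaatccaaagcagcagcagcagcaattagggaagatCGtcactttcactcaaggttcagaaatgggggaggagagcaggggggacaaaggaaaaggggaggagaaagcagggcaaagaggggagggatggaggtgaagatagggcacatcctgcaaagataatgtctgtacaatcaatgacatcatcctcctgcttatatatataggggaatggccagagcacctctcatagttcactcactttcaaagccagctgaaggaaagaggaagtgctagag
COLEC12: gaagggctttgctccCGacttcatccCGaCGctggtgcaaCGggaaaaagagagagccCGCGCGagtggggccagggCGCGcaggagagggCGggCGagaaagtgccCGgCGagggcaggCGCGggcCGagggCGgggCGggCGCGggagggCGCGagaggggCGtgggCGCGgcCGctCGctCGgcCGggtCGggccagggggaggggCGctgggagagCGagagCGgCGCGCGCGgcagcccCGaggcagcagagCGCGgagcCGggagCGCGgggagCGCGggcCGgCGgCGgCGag
GAD1: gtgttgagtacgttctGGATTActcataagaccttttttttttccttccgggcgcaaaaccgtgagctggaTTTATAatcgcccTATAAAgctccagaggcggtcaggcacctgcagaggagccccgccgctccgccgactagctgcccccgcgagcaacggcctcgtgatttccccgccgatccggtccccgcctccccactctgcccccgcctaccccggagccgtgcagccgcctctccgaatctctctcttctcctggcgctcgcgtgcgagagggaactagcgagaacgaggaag
DIO3: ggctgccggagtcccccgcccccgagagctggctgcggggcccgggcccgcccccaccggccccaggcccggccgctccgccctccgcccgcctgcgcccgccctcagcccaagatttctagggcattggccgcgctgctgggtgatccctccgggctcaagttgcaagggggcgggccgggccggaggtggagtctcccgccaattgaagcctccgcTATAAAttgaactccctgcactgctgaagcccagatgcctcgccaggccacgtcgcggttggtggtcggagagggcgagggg

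The NTS window holds 2 CG pairs and the COLEC12 window 49. The ratio of observed to expected CG pairs, which is near 1 in an unmethylated CpG island, was 0.12 for NTS and 1.14 for COLEC12, and 0.70 for DIO3 and 1.05 for GAD1. RefSeq windows were matched by symbol or older symbol for 87 of the 114 genes, 143 windows in all because some genes have several start sites. Their median ratio was 0.75, beside 0.83 over 11648 windows of genes above 4 FPKM at Day 4 and 0.58 over all 35116 windows. A ratio above 0.6 was reached by 69.9% of the members' windows, by 79.9% of the windows of genes above 4 FPKM and by 48.8% of all windows. In 15 of the 87 genes no window reached 0.6. Thus the risers' promoters were mostly CpG-rich, but no more so than those of other genes expressed at Day 4.

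Motifs were searched on both strands. The TATA box (TATAAA) was in 10.5% of the members' windows, beside 5.63% of those of genes above 4 FPKM and 11.5% of all windows. In 9 of the 143 windows (6.29%) it lay on the gene's own strand and began 28 to 33 bases before the start site, as in DIO3, where it began 32 bases before it. The same held for 1.17% of the windows of genes above 4 FPKM and 1.95% of all windows, in a range of positions chosen after the matches were seen. In GAD1 the 2 TATAAA matches began 179 and 166 bases before the start site, and the OTX/GSC letters (TAATCC, on the opposite strand) began 234 bases before it. The T-box letters (TCACACC) were in 2.80% of the members' windows and the forkhead letters (TGTTTAC) in 3.50%. The letters for GATA factors, AGATAA, were in 6.99%, those of SOX factors (ACAATGG) in 1.40%, those of TCF/LEF (CTTTGAT) in 0.70% and those of OTX/GSC in 3.50%. Over genes above 4 FPKM these shares were in the same order 2.92%, 2.53%, 5.37%, 2.00%, 1.37% and 4.28%, and over all windows 3.45%, 3.42%, 10.3%, 3.16%, 2.62% and 6.36%. These shares cover only the 87 genes with a window, and the letters say nothing about binding.

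As a group, the members had median values of 2.10, 2.89, 4.37, 7.04 and 10.2 FPKM at Days 0 to 4. The medians were 2.11 and 2.23 FPKM in the mutant line without and with Dox. Over all 9534 genes above 4 FPKM at Day 4 the median stayed between 16.4 and 17.0 FPKM in every library. At Day 4, the members ranged from 4.00 to 704 FPKM, with 59 above 10, 33 above 20, 15 above 50 and 9 above 100 FPKM. The median ratio of Day 4 to the highest reference was 3.15. It was above 5 in 34 genes, above 10 in 16 and above 20 in 10, counting in each the 5 genes (DIO3, GAD1, TWIST1, VAX1 and ERICH2) listed at 0 in all 3 references, for which no ratio is given. The highest reference was Day 0 for 39 members, the untreated mutant line for 34 and the Dox-treated mutant line for 41, so no single library set the limit. The 39 include the 5 genes listed at 0 in all 3 references, which have no highest reference.

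**Figure D1:**
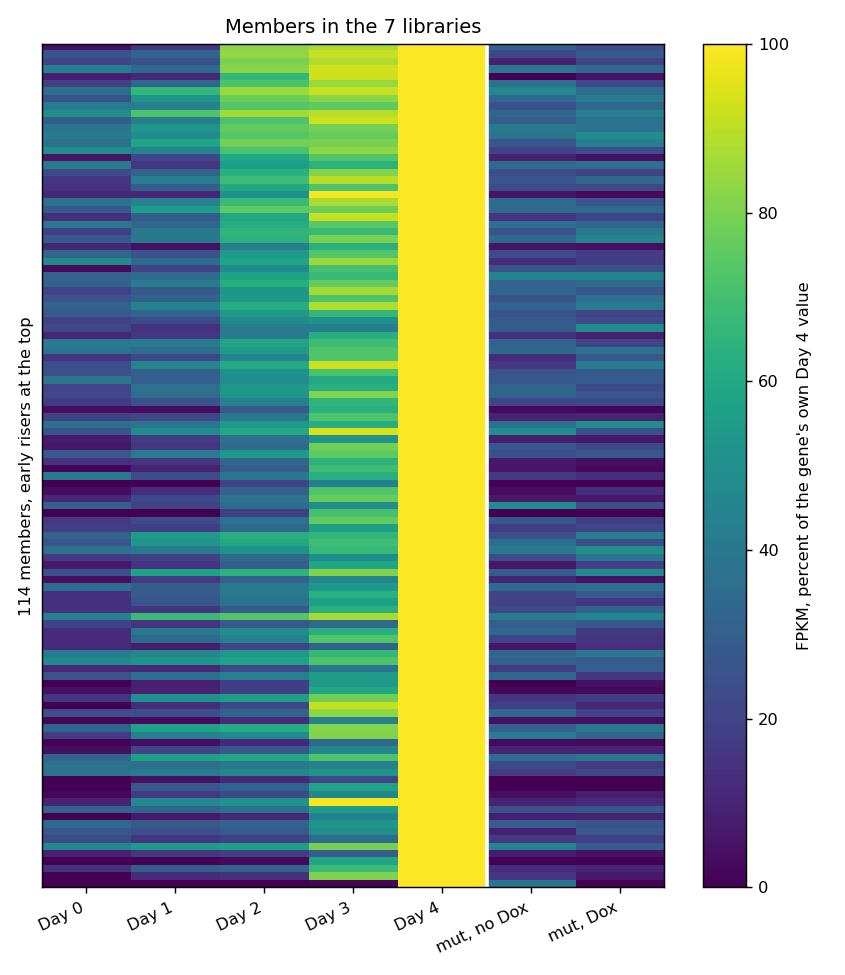
FPKM of the 114 members (rows) in the 7 libraries (columns) as percent of the gene's own Day 4 value, sorted by the share of the Day 1 to Day 4 rise reached by Day 2. The 3 references stay below 50% of Day 4 in every row, as the selection requires, while Day 1 spans a wide range.

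How common the selecting limits were is the background for these numbers. A value over 2 times the other, the higher one being over 4 FPKM, was counted among genes above 4 FPKM in either library compared. It was reached by 602 of 10247 such genes (5.87%) for Day 4 over Day 0. The shares were 7.05% for Day 4 over the untreated mutant line and 6.56% for Day 4 over the Dox-treated mutant line. Later shares of all genes tested have the same kind of base. The full set of limits was met by 1.41% of the 9534 genes above 4 FPKM at Day 4. Of 278 genes that met the Day 4 limits, 134 (48.2%) rose at each step, and 9.57% of the 9534 genes did so. The 278 were picked for a high Day 4 value, which by itself favours a rise toward Day 4. The 2 shares therefore cannot be compared. All 114 members pass the full set of limits by construction. The Day 4 interval lay above the intervals of all 3 references in 80 members, beside 2.89% of the 9534 genes. Since the selection set Day 4 over these same references, nothing is read from this contrast. The other 34 members did not have this separation. Among them were APOC1, RGS5, FGF12, RET, CCKBR, TNNC1, SLIT2, LPAR6, SLC1A1, CTDSP1, SERPINI1, IL32, HIST1H2BK and ARPC4-TTLL3, so their excess over the references is less certain.

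**Figure D2:**
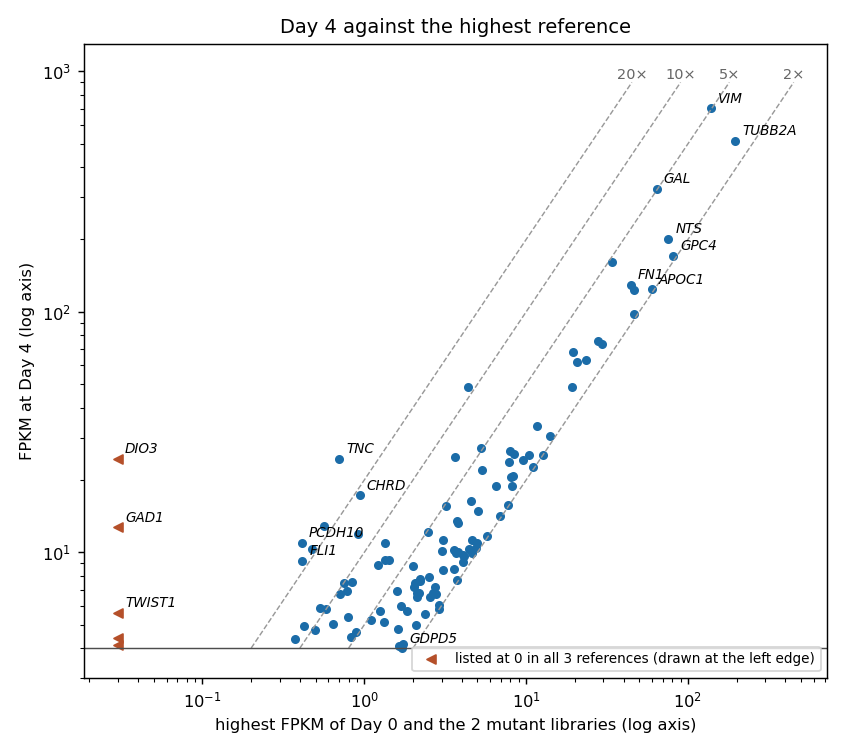
FPKM at Day 4 against the highest of the 3 reference values for the 114 members, both on log axes. Dashed lines mark ratios of 2, 5, 10 and 20. The horizontal line marks 4 FPKM. The 5 genes listed at 0 in all references are drawn at the left edge, and VIM and TUBB2A are the highest at Day 4.

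The limits cut through a continuum. GDPD5 (4.00 FPKM), PDE8A (4.09) and ERICH2 (4.12) were the lowest at Day 4 inside the limit, and TGM1 (3.63), TENC1 (3.55) and AC010646.3 (3.38) were just below it. IL32, ADAM19 and CTDSP1 had the smallest ratios inside (2.01, 2.01 and 2.05), and FAM213A (2.00), TUBB2B (1.99) and TMEM185B (1.99) were just outside.

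The cytoskeleton held the highest member. VIM (chr10:17270258-17279592, hg19), the intermediate filament protein of mesenchymal cells, was at 46.9, 108, 211, 413 and 704 FPKM at Days 0 to 4, and at 44.1 and 138 FPKM in the mutant line without and with Dox. Its Day 4 interval (676 to 741 FPKM) lay far above all others, and each daily step separated the intervals. The mutant library with Dox was also above the one without (intervals 127 to 150 and 38.1 to 50.1 FPKM), so VIM was also higher with Dox in the line lacking catalytic activity, and its Day 4 value was 5.09 times that library. TUBB2A, a beta-tubulin, was at 196, 186, 282, 374 and 514 FPKM at Days 0 to 4 and at 173 and 192 FPKM in the mutant line. It is near-identical to TUBB2B (268 FPKM at Day 0 and 533 at Day 4), which fell just outside the ratio limit, and reads of the 2 genes could be divided between them in either way. MYL9, a myosin regulatory light chain, went from 29.3 FPKM at Day 0 and 22.2 at Day 1 to 73.3 at Day 4. TNNC1, a troponin C, was at 1.1, 0.73, 1.82, 2.84 and 8.82 FPKM at Days 0 to 4. ARHGAP29, a GTPase-activating protein, went from 1.05 to 7.18 FPKM. Over the whole list of 130 measured cytoskeletal genes, 13 were above the 2-fold limit at Day 4 against Day 0 (over 2 times, and over 4 FPKM in the higher library) and 8 below it, with a median log2 difference of 0, equal to the median of 0 over all genes on chromosomes. The 5 members were thus a small part of that list. Over all 20187 genes on chromosomes, 602 were above this limit and 114 were members, which is the background for the counts of each list. The number of all genes below the limit was not counted, so the counts below it in each list have no background. The paper reports more downregulated than upregulated genes after Dox. Nothing is therefore read from the balance of genes above and below the limit in any list. RHOC, a small GTPase (46.4 FPKM at Day 0 and 97.7 at Day 4), and CSRP1, a LIM-domain protein of actin filaments (19.9 and 75.6 FPKM), were among the 12 highest members but in no list.

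**Figure D3:**
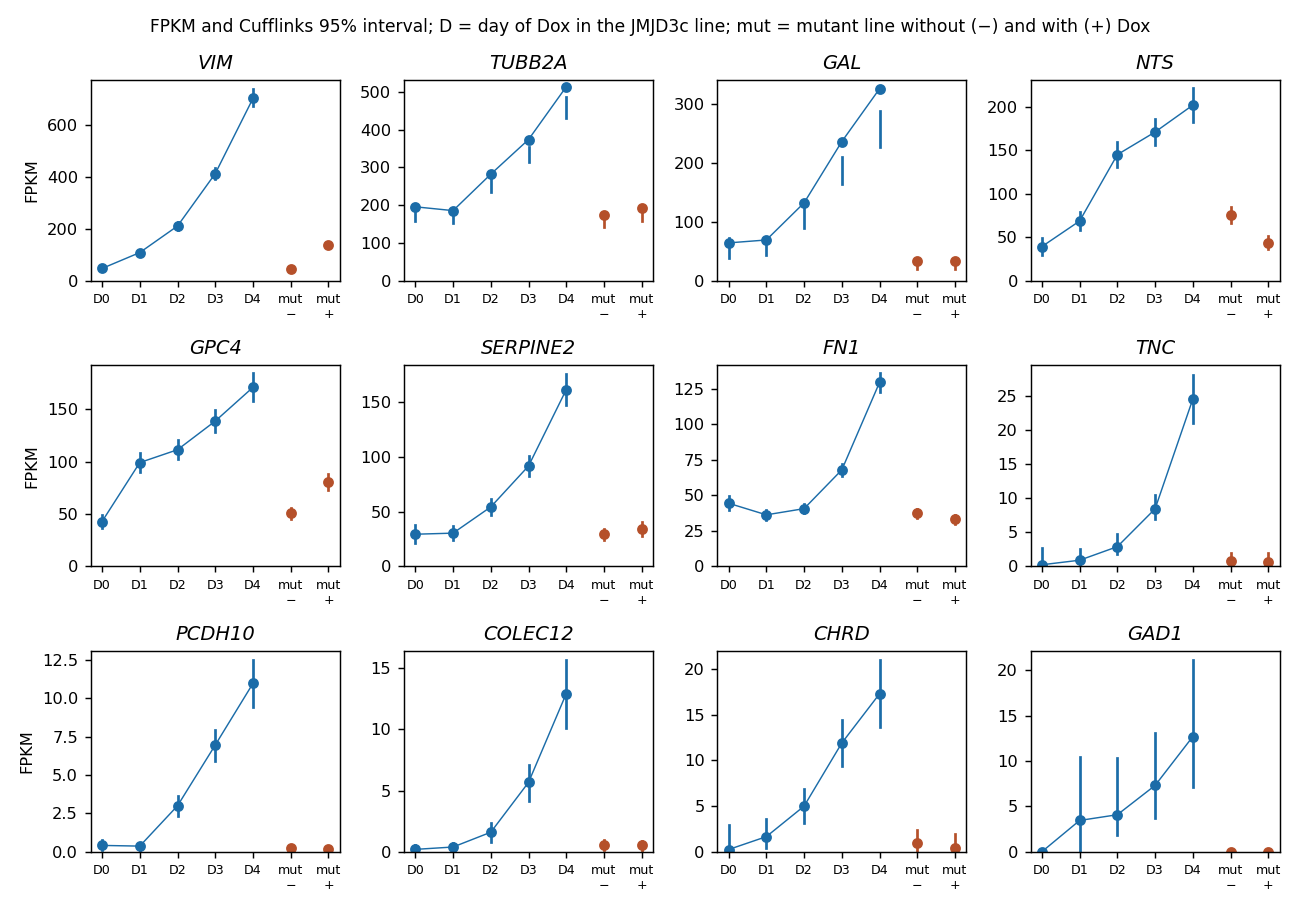
FPKM (points) and Cufflinks 95% intervals (vertical lines) of 12 leading members in the JMJD3c line (blue, Days 0 to 4) and the mutant line (brown, without and with Dox). The points of TUBB2A and GAL at Days 2, 3 and 4 lie above their own intervals in the deposited values. The mutant-line points stay low in TNC, PCDH10, COLEC12, CHRD and GAD1.

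The extracellular matrix list gave 9 members of 140 measured genes. SERPINE2, a secreted protease inhibitor of the matrix, was at 29.3, 30.3, 54.3, 91.8 and 162 FPKM at Days 0 to 4 and at 29.1 and 34.1 FPKM in the mutant line. FN1, fibronectin, started at 44.4 FPKM, was lower at Day 1 (36.2) and reached 40.5, 67.9 and 130 FPKM at Days 2 to 4, and the mutant line had 37.2 and 32.9 FPKM. Its rise came late, with 4.68% of the Day 1 to Day 4 increase reached by Day 2. TNC (tenascin C, chr9:117782806-117880536, hg19) was at 0.20, 0.87, 2.87, 8.43 and 24.6 FPKM and at 0.70 and 0.57 FPKM in the mutant line, which makes Day 4 35.3 times the highest reference. HAS2, which makes hyaluronan, was at 2.68, 4.04, 10.3, 15.6 and 24.9 FPKM, and its intervals separated at every step from Day 1. FBN2, fibrillin 2, went from 11 to 30.4 FPKM, MATN3, matrilin 3, from 1.45 to 12.2, COL2A1 from 2.50 to 7.92, and EMILIN2 from 0.98 to 5.68 FPKM. In the whole list, 19 genes were above and 8 below the 2-fold limit at Day 4 against Day 0, with a median log2 difference of 0.14, beside 0 over all genes.

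Adhesion molecules gave 3 members of 113 measured. CDH2, N-cadherin, was at 19.2, 16.5, 30.0, 36.0 and 48.6 FPKM at Days 0 to 4 and at 18.1 and 16.4 FPKM in the mutant line. PCDH10, a protocadherin, was at 0.41, 0.37, 2.99, 6.95 and 11 FPKM and at 0.27 and 0.19 FPKM in the mutant line. CNTNAP2, a neurexin-like adhesion protein, was at 23.5, 27.5, 43.0, 55.1 and 63.2 FPKM. In the whole list 10 genes were above and 7 below the limit, with a median log2 difference of 0.13.

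Among secreted proteins, the neuropeptide genes GAL and NTS were the third and the fourth highest members. GAL (galanin) was at 64.0, 68.9, 132, 236 and 325 FPKM at Days 0 to 4 and at 32.4 FPKM in both mutant libraries. NTS (neurotensin) was at 39.1, 68.5, 145, 171 and 202 FPKM, and at 75.2 FPKM without and 43.5 FPKM with Dox in the mutant line. The Day 1 value of NTS was therefore below that of the untreated mutant line. APOC1, an apolipoprotein, was at 59.6, 44.1, 72.9, 106 and 124 FPKM, with 15.9 and 22.8 FPKM in the mutant line, but its intervals were wide, and that of Day 4 (60.2 to 188 FPKM) overlapped that of Day 0 (14.9 to 105 FPKM). CHGA, chromogranin A, went from 4.42 to 10.4 FPKM, IGFBP6 from 0 to 9.34 and IGFBP7 from 0.54 to 5.89 FPKM. CPE, which processes prohormones, was at 3.80, 7.24, 10.3, 15.5 and 27.2 FPKM. The secreted list of 99 measured genes had 15 above and 3 below the limit, with a median log2 difference of 0.

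Genes that limit or modulate signals gave 6 members of 70 measured. CYP26A1 (chr10:94833232-94837647, hg19), which breaks down retinoic acid, was at 2.63, 10.5, 29.0, 35.5 and 48.8 FPKM at Days 0 to 4 and at 4.40 and 2.27 FPKM in the mutant line. CHRD, chordin, a secreted BMP antagonist, was at 0.24, 1.65, 4.98, 11.9 and 17.3 FPKM and at 0.93 and 0.42 FPKM in the mutant line. The entry of EIF2B5 spans CHRD on the same strand, and it stayed between 16.5 and 21.7 FPKM. GPC4, a glypican that carries heparan sulphate, was at 42.7, 99.0, 111, 139 and 171 FPKM and at 50.4 and 80.6 FPKM in the mutant line, where its intervals with and without Dox also did not overlap. DUSP4, a phosphatase that inactivates ERK, went from 0.84 to 7.52 FPKM, and the FGF-receptor-binding proteins FLRT3 and FLRT2 from 0 to 5.79 and from 0.37 to 4.94 FPKM. In the whole list 10 genes were above and 4 below the limit, with a median log2 difference of 0.063.

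Ligands gave 2 members of 91 measured and receptors 5 of 94. FGF17 was at 0.37, 0.50, 2.87, 4.04 and 4.34 FPKM at Days 0 to 4, and 0 and 0.21 FPKM in the mutant line. FGF12, which belongs to the FGF family by sequence but acts inside cells, went from 3.31 to 13.3 FPKM. Its Day 4 interval overlapped those of all 3 references. Of the ligands, 5 were above and 3 below the limit, with a median log2 difference of 0. The 5 receptor members were RET, the receptor tyrosine kinase for GDNF-family ligands (4.61 to 9.92 FPKM from Day 0 to Day 4), EPHB3, an ephrin receptor (1.53 to 8.54), S1PR3, a sphingosine-1-phosphate receptor (0.98 to 6.77), LPAR6, a lysophosphatidic acid receptor (1.77 to 5.53), and APLNR, the apelin receptor of early mesoderm (0.17 to 5.06). In the receptor list, 11 were above and 5 below the limit, with a median log2 difference of 0.11. The guidance cues SLIT2 and NTN1, named after their values were seen, went from 2.01 to 7.78 and from 2.65 to 9.92 FPKM.

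The fixed list of developmental transcription factors beyond the set-aside regulators gave 5 members of 266 measured. FLI1, an ETS factor of blood and endothelial development, was at 0.41, 0.83, 1.72, 5.53 and 9.22 FPKM at Days 0 to 4 and at 0.20 and 0.23 FPKM in the mutant line. TWIST1, a basic helix-loop-helix factor of mesenchyme, was listed at 0 in the 3 references and was at 0.26, 0.64, 1.19 and 5.61 FPKM at Days 1 to 4. VAX1, a homeodomain factor of the ventral forebrain, was listed at 0 in the references and at Day 1, and reached 0.90, 1.91 and 4.40 FPKM. EGR1, an immediate early factor, went from 2.11 to 13.6 FPKM and FOXJ1, a factor of motile cilia, from 2.53 to 9.09 FPKM. In the whole list 22 genes were above and 17 below the limit, with a median log2 difference of 0. Other members outside that list are also transcription factors, such as SOX14, MXD4 and EPAS1 (4.67, 6.71 and 7.58 FPKM at Day 4), which were named after their values were seen.

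Second-messenger genes gave 3 members of 130 measured, RGS5, a regulator of G protein signalling (5.38 FPKM at Day 0 and 26.5 at Day 4), CAMK2D, a calcium-dependent kinase (7.10 and 18.9), and CCKBR, a receptor for gastrin and cholecystokinin (3.80 and 10.1). The Day 4 intervals of RGS5 and CCKBR overlapped those of Day 0. In the second-messenger list 13 genes were above and 8 below the limit, with a median log2 difference of 0. Transporters gave 3 of 689 measured, SLCO2A1, which carries prostaglandins (0.28 and 12 FPKM), SLC22A3, a carrier of organic cations (1.25 and 8.78), and SLC1A1, a glutamate carrier (3.03 and 11.7), while 15 transporters and channels were above and 25 below the limit. Of 822 noncoding or clone-named entries, none was a member, with 17 above and 19 below the limit. In all, 51 of the 114 members belonged to a fixed list and 63 to none.

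Other leading members belonged to no role list. COLEC12, a scavenger receptor with a collagen-like stalk, was at 0.19, 0.39, 1.60, 5.67 and 12.9 FPKM at Days 0 to 4 and at 0.56 and 0.53 FPKM in the mutant line. GMPR, a guanosine monophosphate reductase, was listed at 0 at Day 0 and in the untreated mutant line, at 0.47 FPKM in the Dox-treated mutant line, and at 0.86, 1.89, 5.53 and 10.3 FPKM at Days 1 to 4. DIO3 (chr14:102027688-102029789, hg19), which inactivates thyroid hormone, was listed at 0 through Day 1 and reached 0.49, 14.3 and 24.5 FPKM. Its Day 4 interval ran from 13.5 to 1668 FPKM, so its level is poorly fixed. H2AFY, which encodes the histone variant macroH2A1 and was among the 12 highest at Day 4 with a ratio of 2.64 to the highest reference, was at 36.4, 52.6, 88.1, 114 and 123 FPKM and at 37.3 and 46.5 FPKM in the mutant line.

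GAD1, which makes the transmitter GABA, and ERICH2 were the only 2 members within 100 kb of each other. ERICH2 (chr2:171640296-171655481, hg19, + strand) ended 14242 bases before GAD1 (chr2:171669723-171717661, + strand), and both lay downstream of SP5, a set-aside Wnt target, at 65708 and 95135 bases. SP5 was at 0, 0.82, 6.78, 11.4 and 28.2 FPKM at Days 0 to 4. ERICH2 was listed at 0 at Days 0 and 1 and reached 0.78, 2.92 and 4.12 FPKM. GAD1 was at 0 at Day 0 and at 3.45, 4.08, 7.32 and 12.7 FPKM at Days 1 to 4. All 3 were at or near 0 in the mutant line. The flanking genes MYO3B (0.052 to 0.26 FPKM over the 7 libraries) and GORASP2 (30.4 to 38.4 FPKM) did not show this course, and LINC01124, 784 bases from SP5, reached 0.61 FPKM at most.

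The rise was spread over the days. On the log2(FPKM + 1) scale, which understates low genes, the median step was 0.34 from Day 0 to 1, 0.53 from Day 1 to 2, 0.40 from Day 2 to 3 and 0.46 from Day 3 to 4, and the median of genes above 4 FPKM at Day 4 moved by at most 0.043 at any step. The largest of the 3 steps from Day 1 was the first in 46 members, the middle one in 30 and the last in 38. The interval of the later day lay above that of the earlier in 24 members from Day 1 to 2, in 28 from Day 2 to 3 and in 25 from Day 3 to 4, beside 1.56%, 2.23% and 1.75% of the 9534 genes. Since the selection asked for a rise at each of these steps, nothing is read from these counts. All 3 steps were apart in 8 (VIM, TUBB2A, GAL, SERPINE2, CNTNAP2, HAS2, COLEC12 and PCDH10), and none in 66. For TUBB2A and GAL the deposited FPKM lies above its own interval at Days 2, 3 and 4, so their separations are uncertain. The Day 4 interval lay above that of Day 1 in 83, beside 5.24% of the 9534 genes, a separation that the selection also favoured.

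**Figure D4:**
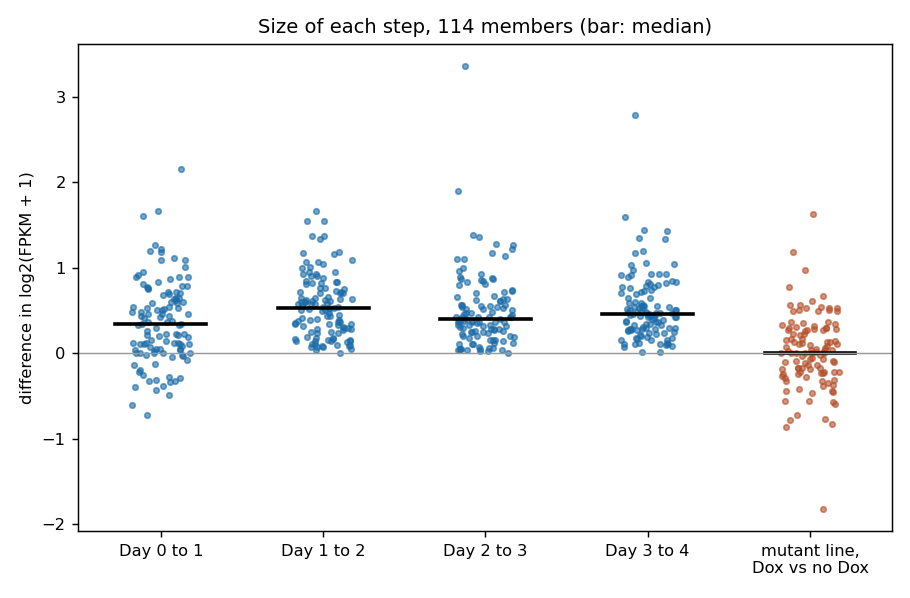
Difference in log2(FPKM + 1) for each of the 114 members (points) over each daily step of the JMJD3c line and between the mutant line with and without Dox, with the median as a bar. The 3 steps from Day 1 on are above 0 by construction, while Day 0 to 1 and the mutant line scatter on both sides of 0.

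The step from Day 0 to Day 1 was not used for the order of the days, although Day 0 was a reference. Day 1 was above Day 0 in 88 members, below in 23 and equal in 3 that were at 0 in both, whereas 46.3% of the 9534 genes above 4 FPKM at Day 4 were higher at Day 1. Because Day 0 was required to be low relative to Day 4, this share is not independent of the selection. Whatever their level, 26 members with Day 0 above 0 were over 2 times Day 0 at Day 1. With over 4 FPKM also asked, there were 8 at Day 1 (7.02% of members, beside 3.48% of all genes tested). There were 33 at Day 2 (28.9%, beside 3.9%) and 64 at Day 3 (56.1%, beside 4.73%). The selection asked for rises to Day 4 and a Day 4 value over 2 times Day 0. Nothing is therefore read from these counts. The members' shares are of all members, and the others are of genes above 4 FPKM in either library compared. The members' median at Day 1 was 2.89 FPKM, so the 4 FPKM limit lowers their counts. The 8 were VIM, GPC4, CYP26A1, HIST1H2BK, PPFIBP1, DAB1, MATN3 and LRRN2. HIST1H2BK shares reads with near-identical histone genes and is uncertain.

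By Day 2 the members had reached a median of 21.5% of their Day 1 to Day 4 increase in FPKM (quartiles 11.6% and 37.3%), and by Day 3 55.9% (40.2% and 67.9%). The early risers, above 50% by Day 2, numbered 12 and included NTS (57.3%), H2AFY (50.5%), FBN2 (55.0%), CHGA (73.2%), SLIT2 (75.8%) and FGF17 (61.8%). The late risers, below 10% by Day 2, numbered 25 and included FN1, TNC (8.42%), DIO3 (2.00%), GAD1 (6.85%), TWIST1 (7.10%) and IGFBP7 (2.64%). CYP1B1 and LRRN2 had reached 98.4% and 98.2% by Day 3, and CCKBR 10.3%. These genes were named after their values were seen.

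**Figure D5:**
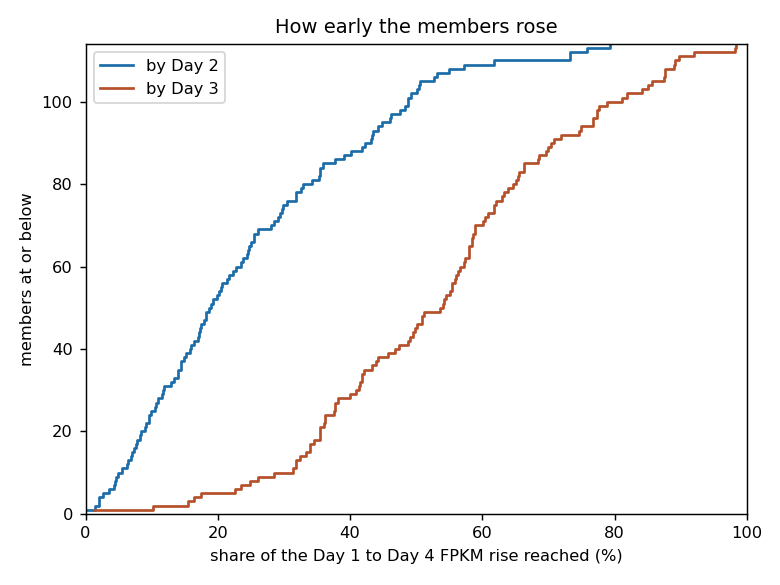
Number of members at or below each share of the Day 1 to Day 4 FPKM rise, by Day 2 and by Day 3. The median is 21.5% by Day 2 and 55.9% by Day 3, and both curves run smoothly from early to late risers.

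In the mutant line, Dox induced the form without catalytic activity. The members' differences between the libraries with and without Dox went in both directions. The median log2 difference, Dox over no Dox, was 0.0074, and 58 members were higher, 51 lower and 5 equal at 0. Over the 9534 genes above 4 FPKM at Day 4, 48.8% were lower with Dox. Over 2 times the untreated value and over 4 FPKM were 3 members (VIM, PHLDA2 and TCHP), beside 1.25% of all genes tested, and under 0.5 times it were 2 (RAB17 and SERPINI1), beside 1.53%. The selection kept the Dox-treated mutant library low relative to Day 4, which limits how far a member could rise there. Intervals were apart upward in 2 members, VIM and GPC4 (1.38% of the 9534 genes), and downward in 3, NTS, CNTNAP2 (22.1 and 16.7 FPKM) and FBN2 (14 and 10.6 FPKM), beside 1.65%. Before induction, Day 0 and the untreated mutant line differed by over 2 times, with over 4 FPKM in the higher, in 3 members (APOC1, PHLDA2 and TGFB1I1), beside 9.79% of all genes tested. Whatever the level, 22 members with both values above 0 differed by over 2 times. The selection kept both libraries low relative to Day 4, and the members' medians there were 2.10 and 2.11 FPKM. The count of 3 is therefore not a result about the members.

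Some values are uncertain for how reads were assigned. The library kit was directional, but whether counting used the strand is not given in the sources used here. Of the members, 21 (18.4%) overlap another entry, beside 27.2% of all genes on chromosomes, and 9 overlap an entry with more FPKM at Day 4. ARPC4-TTLL3, a read-through entry across ARPC4 and TTLL3, was close to 0 through Day 2, at 0.083 FPKM at Day 3 and at 6.51 FPKM at Day 4 (interval 0 to 13), with 2.54 FPKM for the mutant line before Dox, while ARPC4 stood at 125 FPKM at Day 4. CHRD and EPHB3 lie in the entry of EIF2B5, and ENC1, IQCK, IGFBP7, LPAR6, LTBR and FAM20A overlap a more abundant gene on the opposite strand.

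Markers of other cell types were summed over lists that were fixed with earlier results of these data known. The mesenchyme list (21 genes) summed to 326 FPKM at Day 0 and 1142 at Day 4, and to 267 and 432 FPKM in the mutant line, but VIM alone was 704 FPKM of the Day 4 sum, and only VIM and TWIST1 of the list were members. Of that list, 3 genes were above and none below the limit. The extraembryonic and gut endoderm list (55 genes) summed to 512 and 785 FPKM at Days 0 and 4 and to 455 and 425 FPKM in the mutant line. This list also holds signalling genes such as NODAL, FGF8 and FGF17, so it marks no single cell type. In it 17 genes were above the limit, beside 602 of all 20187 genes, and 3 were below it. The median log2 difference was 0.86, beside 0 over all genes. Of the list, 7 were members (CYP26A1, CPE, HAS2, DIO3, BTG2, FLRT3 and FGF17), beside 114 of all genes. Of its genes that are no members, TTR and PDX1 were listed at 0 in every library and AFP did not exceed 0.55 FPKM, whereas TFF3, APOA2, APOA1 and HNF4A were listed at 0 in the 3 references and stood at 13.2, 6.20, 3.37 and 2.74 FPKM at Day 4. The cardiac and paraxial mesoderm list (32 genes) summed to 40.5 FPKM at Day 0 and 81.9 at Day 4, and to 38.1 and 27.7 FPKM in the mutant line, with 4 above and 1 below, and the members HAS2 and APLNR. The trophoblast and amnion list (35 genes, member EPAS1) went from 50.1 to 38.3 FPKM (46.6 and 45.6 in the mutant line), with 1 above and 1 below the limit. In the neural list (30 genes) the sums were 377 and 410 FPKM (307 and 354 in the mutant line). TUBB3 (222 and 169 FPKM) and NES (106 and 162 FPKM) made up most of both sums. Above the limit were 2 genes, ZIC1 (4.99 and 15.8 FPKM) and PAX6 (2.22 and 5.91), and below it 1, STMN2 (5.86 and 1.08). In the blood and endothelium list (21 genes) the sums were 51.1 and 29.0 FPKM (33.7 and 29.3 in the mutant line), with none above and 2 below. The pluripotency list (13 genes) went from 3168 to 2265 FPKM (3043 and 2648 in the mutant line), with none above and 3 below. The part of such cells in the members' values was not tested.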

How the data were processed

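RNA was sequenced from 7 samples of SEES-3 hESCs, 1 per condition, as 150-base single reads. The authors mapped reads to hg19 with TopHat2 2.0.13 and deposited FPKM per gene from Cufflinks 2.1.1, with 95% bounds (versions per the submitters' processing notes, which also name CASAVA 1.4). The deposited FPKM values were used as given, with no further scaling. Rows were joined by gene identifier and locus, and only entries on chromosomes were kept.

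The members and gene lists were chosen with earlier results of these data known. A gene was called changed at an FPKM ratio above 2 or below 0.5 with more than 4 FPKM in the higher library, and log2 differences used a pseudocount of 1. With 1 library per condition no test was made. Intervals were called apart when they did not overlap. Named genes were the 12 highest at Day 4, the 12 with the largest ratios to the highest reference, members of the lists, and those nearest each limit. Overlaps, strand and type came from GENCODE release 44 on GRCh37, and promoters from RefSeq (GRCh38.p14, all start sites). No window was matched for 27 members, among them APLNR, COL2A1, CYP1B1, DUSP4, ENC1, FAM20A, FGF17, FLI1, FOXJ1, GAL, HAS2, IGFBP7, LZTS1, MAGEB17, MYL9, NTN1, PCDH10, PHLDA2, PPP1R3B, SLC22A3, SLCO2A1, SLFN5, SOX14, TNFRSF10D, TNNC1 and TWIST1. Depth was estimated from the steps of low FPKM values, taking 200 bases off each transcript. One member is counted but not reported by name here. The selection was tested on simulated data. Python 3.11.15, pandas 2.3.3, numpy 2.4.6 and matplotlib 3.10.9 were used.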

Additional observations from a re-analysis of the deposited data

Results flagged for a closer look

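All 114 members were higher at Day 4 than at Day 0 of the JMJD3c line, whereas 51 of them were lower with Dox than without in the mutant line, 58 were higher and 5 were equal. The share lower with Dox, 44.7% of the members, was near that of all genes above 4 FPKM at Day 4, 48.8%, so it is not a result about the members. The difference between the lines was not tested, because each condition had 1 library, and the rise in the JMJD3c line was itself a condition of the selection. Only 3 of the 51 (NTS, CNTNAP2 and FBN2) had intervals apart in the mutant line.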

How the results depend on the processing

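The number of members, 114, followed the limits. It fell to 59 with a Day 4 minimum of 10 FPKM and to 63 with a ratio above 3, and rose to 192 with Day 0 as the only reference, 256 with no order asked, 187 without Day 2 in the order and 172 without Day 3. The other 8 alternatives gave 80 to 171 genes, within 1.5 times, among them 121 with libraries scaled to equal medians and 123 by upper quartiles, each of which kept 113 of the 114. At the 10 FPKM minimum, Day 1 was above Day 0 in 45 members in place of 88, and the Day 4 interval was above all 3 references in 49 in place of 80. The median share of the rise reached by Day 2 was 21.5% on FPKM, 34.3% on log2(FPKM + 1) and 20.7% after scaling to equal medians. The number of members over 2 times or under 0.5 times in the mutant line with Dox, whatever their level, was 15 on FPKM and 3 on FPKM + 1, since most of these had low values. No replicates could be left out, since each condition had 1 library, and no paired analysis was possible because each group has 1 sample and no test was made. At the estimated depths, 1 read is worth 0.071 FPKM at Day 0 and 0.052 FPKM at Day 4 for a gene of the members' median transcript length, and values below a few reads cannot be told from 0.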
